A study of Mus musculus with 17 samples.

Results

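Notch signalling genes were measured in sorted cells of the embryonic mouse cortex: 3 receptors (Notch1, Notch2, Notch3), 5 ligand genes (Dll1, Dll3, Jag1, Jag2 and Dner) and 2 genes for Notch antagonists (Numb and its relative Numbl). Every probe set of an Affymetrix expression array whose only gene symbol was one of these 10 was taken, which gave 18 of the 34945 probe sets with a single symbol, for 10 of 18193 genes. Of the 10 genes, 3 have 1 probe set, 6 have 2 and Jag1 has 3. The study compared radial glial subtypes by their sorted RNA, on 17 arrays in 5 groups. All cells came from the cortex of embryos of the hGFAP-eGFP line, in which a human GFAP promoter drives enhanced green fluorescent protein (GFP), so a sort on GFP follows the activity of that transgene. At embryonic day 18 (E18), GFP-positive cells were selected for Prominin (n = 4). At E14, embryonic day 14, cells were sorted into GFP-high (n = 4) and GFP-low pools (n = 3) that were also selected for Prominin, a membrane protein of apical progenitors, and these are called gated. Further E14 pools, 3 GFP-high and 3 GFP-low, have labels without a Prominin gate and are called ungated. The labels give no litters or pooling of embryos, so the p-values reflect spread among samples that may be no more than technical repeats.

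Notch receptors sit in the cell membrane and are cut when a ligand on a neighbouring cell binds them. The freed intracellular part enters the nucleus, where it joins the DNA-binding protein RBPJ and switches on genes such as Hes1 and Hes5, which repress proneural genes. In the embryonic cortex this keeps radial glia as progenitors, while cells turning into neurons carry Delta-type ligands, and Numb binds the receptor and favours its removal from the membrane.

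Levels are log2 values of the array intensity after 16 was added, quantile-normalised, with a lowest possible value of 4. Probe sets for 29 genes of other organs had a median level of 4.63, and their 95th percentile, 5.77, serves as the background. Of the 18 probe sets 11 averaged above it in all 5 groups, which covers every gene except Jag2, and 2 of the 3 for Jag1 did so in none. All 10 radial glia markers were above background in every group, and the 14 postmitotic neuron markers had 12 to 14 above it. The mean of the neuron markers ran from 10.19 to 10.37 on E18 arrays, 9.19 to 9.39 on gated and 8.21 to 8.58 on ungated GFP-high arrays, 10.06 to 10.17 on gated and 11.01 to 11.20 on ungated GFP-low arrays. Interneuron markers averaged 7.97 to 8.15 on E18 arrays and at most 6.72 on E14 arrays, Cajal-Retzius markers were highest on gated GFP-low arrays (7.36 to 7.89, against at most 6.35 elsewhere), and oligodendrocyte lineage markers averaged 6.68 to 7.69 on E18 arrays and at most 5.28 on E14 arrays. Endothelial and pericyte markers had 1 to 3 genes above background in a group, and microglial, choroid plexus and erythroid markers at most 1. In sorted pools, fewer cells of a type and less RNA per cell cannot be told apart.

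Notch1, the main receptor of cortical progenitors, read 8.34, 8.55, 8.68 and 8.63 on E18 arrays, 10.77, 10.56, 10.82 and 10.58 on gated GFP-high, 9.50, 9.65 and 9.90 on gated GFP-low, 10.20, 10.51 and 10.36 on ungated GFP-high and 7.05, 7.21 and 7.91 on ungated GFP-low arrays. No 2 groups overlapped at this probe set: gated GFP-high cells were highest, then ungated GFP-high, gated GFP-low, E18 and ungated GFP-low cells. The second Notch1 probe set gave another order, with ungated GFP-high arrays highest (8.21 to 8.66), then gated GFP-high (7.08 to 7.64), gated GFP-low (6.38 to 6.98) and ungated GFP-low arrays (6.45 to 6.52), which overlapped, and E18 arrays lowest (6.12 to 6.36). Notch2, a second progenitor receptor, read 8.41, 7.85, 8.82 and 9.13 on E18 arrays, 8.50, 8.18, 8.64 and 8.56 on gated GFP-high, 7.55, 7.52 and 7.93 on gated GFP-low, 9.79, 10.08 and 9.86 on ungated GFP-high and 6.72, 6.75 and 7.81 on ungated GFP-low arrays. Ungated GFP-high cells stood above all others for Notch2, whereas E18 cells overlapped gated GFP-high cells and the GFP-low groups overlapped each other. Notch3, the receptor best known from vascular smooth muscle, read 6.14, 6.41, 6.03 and 6.05 on E18 arrays, 8.41, 8.01, 8.20 and 8.30 on gated GFP-high, 7.61, 7.16 and 7.38 on gated GFP-low, 8.60, 8.30 and 8.26 on ungated GFP-high and 6.40, 6.58 and 6.93 on ungated GFP-low arrays. Both GFP-high groups were highest and overlapped each other, gated GFP-low cells stood alone in the middle, and ungated GFP-low and E18 cells, the lowest, met at their edges.

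On GRCm38.p6 of RefSeq, Notch1 spans chr2:26457902-26503822, Notch2 chr3:98013538-98150367, Notch3 chr17:32120820-32166896 and Dner chr1:84369839-84696221. The windows of 300 bases around their starts (250 before, 50 after, read on the strand of the gene) are shown. Of the 10 genes, these 4 carry the largest differences described below. Capitals mark the N box, CACNAG on either strand, a site that Hes repressors bind, and matches on opposite strands that overlap are joined.
Notch1: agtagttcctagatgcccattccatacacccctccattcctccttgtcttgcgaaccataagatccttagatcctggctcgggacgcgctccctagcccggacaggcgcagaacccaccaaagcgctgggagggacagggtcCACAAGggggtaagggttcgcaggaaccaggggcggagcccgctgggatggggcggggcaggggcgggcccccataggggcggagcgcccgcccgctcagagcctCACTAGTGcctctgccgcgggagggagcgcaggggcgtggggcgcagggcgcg
Notch2: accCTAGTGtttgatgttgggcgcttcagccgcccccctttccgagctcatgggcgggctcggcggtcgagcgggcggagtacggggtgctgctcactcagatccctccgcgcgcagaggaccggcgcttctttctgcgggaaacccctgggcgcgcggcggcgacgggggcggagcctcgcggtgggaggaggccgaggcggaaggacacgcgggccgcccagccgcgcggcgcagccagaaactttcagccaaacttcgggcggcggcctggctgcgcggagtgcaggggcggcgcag
Notch3: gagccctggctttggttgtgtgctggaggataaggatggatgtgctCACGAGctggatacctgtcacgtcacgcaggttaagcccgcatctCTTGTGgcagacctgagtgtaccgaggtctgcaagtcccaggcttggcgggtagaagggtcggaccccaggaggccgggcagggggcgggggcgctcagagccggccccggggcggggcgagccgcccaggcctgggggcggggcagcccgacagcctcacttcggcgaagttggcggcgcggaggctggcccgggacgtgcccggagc
Dner: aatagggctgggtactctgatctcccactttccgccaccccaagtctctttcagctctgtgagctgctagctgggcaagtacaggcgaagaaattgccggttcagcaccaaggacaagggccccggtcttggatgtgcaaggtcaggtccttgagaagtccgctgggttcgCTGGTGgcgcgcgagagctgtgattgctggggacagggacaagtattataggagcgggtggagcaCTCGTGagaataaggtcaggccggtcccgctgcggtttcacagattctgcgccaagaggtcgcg
Notch1 lies on the minus strand at chr2:26503773-26504072, Notch2 on the plus strand at chr3:98013288-98013587, Notch3 on the minus strand at chr17:32166841-32167140 and Dner on the minus strand at chr1:84696172-84696471. The N box matched 3 times in the Notch1 window, 2 of them overlapping on opposite strands, once in that of Notch2 and 2 times each in those of Notch3 and Dner. Of the windows not shown, 1 for Dll1 and 1 for Numb held it once, and those of Dll3, Jag1, Jag2 and Numbl had 0 matches. The N box is present in 42.5% of 32851 such windows. The RBPJ core TGGGAA, also searched on both strands, is in 25.6% of all windows and in 0 of the 13 windows of the 10 genes. Matches are descriptions of these letters only. The windows of Notch1, Notch2, Notch3 and Dner held 23, 41, 25 and 17 CG pairs, against a median of 7 over all windows.

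The ligand genes lie at chr17:15367354-15376932 (Dll1), chr7:28293555-28301785 (Dll3), chr2:137081451-137116520 (Jag1) and chr12:112907803-112929812 (Jag2), and the antagonists at chr12:83794034-83921942 (Numb) and chr7:27258438-27282150 (Numbl), on the same build. Dll1, the Delta ligand presented by newborn neurons and intermediate progenitors, read 8.86, 9.07, 8.46 and 8.75 on E18 arrays, 8.69, 9.03, 9.20 and 9.50 on gated GFP-high, 8.83, 8.59 and 8.93 on gated GFP-low, 9.79, 9.98 and 9.87 on ungated GFP-high and 8.61, 8.63 and 8.79 on ungated GFP-low arrays. Ungated GFP-high cells stood above the other 4 groups, which overlapped their neighbours in the order of means. Dll3, a divergent Delta protein that acts against Notch within its own cell, read 7.88, 8.21, 7.67 and 7.93 on E18 arrays, 8.82, 8.42, 8.46 and 8.61 on gated GFP-high, 8.41, 8.10 and 8.62 on gated GFP-low, 8.02, 8.33 and 8.08 on ungated GFP-high and 7.87, 7.98 and 7.68 on ungated GFP-low arrays. For Dll3 every group overlapped the next in order, from gated GFP-high cells at the top to ungated GFP-low cells. Dner, a membrane protein of neurons with EGF-like repeats that is reported to act as a Notch ligand, read 9.85, 9.81, 9.73 and 10.26 on E18 arrays, 8.27, 8.75, 8.55 and 8.74 on gated GFP-high, 9.57, 9.25 and 9.45 on gated GFP-low, 7.32, 7.32 and 7.01 on ungated GFP-high and 9.19, 9.65 and 9.60 on ungated GFP-low arrays. At this probe set E18 cells were highest and apart from the rest, both GFP-low groups overlapped, and gated and then ungated GFP-high cells lay below them without overlap. At the second Dner probe set ungated GFP-low arrays were highest (10.08 to 10.30), followed without overlap by E18 (9.50 to 9.75) and gated GFP-low arrays (8.93 to 9.19), and gated GFP-high (7.79 to 8.60) and ungated GFP-high arrays (7.53 to 7.98) overlapped at the low end.

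Of the Jagged ligands, Jag1 was above the background in all 5 groups and Jag2 in 3. Jag1 read 6.62, 6.76, 6.93 and 7.50 on E18 arrays, 6.77, 7.01, 6.67 and 6.49 on gated GFP-high, 6.84, 6.42 and 6.71 on gated GFP-low, 7.47, 7.77 and 7.09 on ungated GFP-high and 6.52, 6.40 and 7.33 on ungated GFP-low arrays, with each group overlapping the next. Jag2 read 6.09, 6.81, 6.69 and 6.32 on E18 arrays, 6.27, 5.99, 5.52 and 5.55 on gated GFP-high, 5.70, 6.07 and 4.24 on gated GFP-low, 5.31, 5.65 and 4.73 on ungated GFP-high and 6.35, 6.05 and 5.97 on ungated GFP-low arrays. Its neighbours in order also overlapped, and the gated GFP-low and ungated GFP-high means lay below the background.

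Numb, the endocytic adaptor that antagonises Notch, read 7.55, 7.90, 7.77 and 7.65 on E18 arrays, 8.81, 8.49, 8.68 and 8.61 on gated GFP-high, 8.24, 8.28 and 8.48 on gated GFP-low, 8.21, 8.40 and 8.17 on ungated GFP-high and 7.29, 6.85 and 7.31 on ungated GFP-low arrays. Gated GFP-high cells were highest, gated GFP-low and ungated GFP-high cells overlapped below them, and E18 and then ungated GFP-low cells stood apart at the low end. Numbl, which acts together with Numb in cortical progenitors, read 6.59, 6.57, 6.44 and 6.41 on E18 arrays, 7.63, 6.95, 6.99 and 7.17 on gated GFP-high, 5.98, 6.79 and 7.21 on gated GFP-low, 7.64, 6.93 and 7.87 on ungated GFP-high and 7.71, 7.88 and 7.09 on ungated GFP-low arrays. Neighbouring groups overlapped throughout for Numbl, with E18 cells the lowest in the mean.

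**Figure D1:**
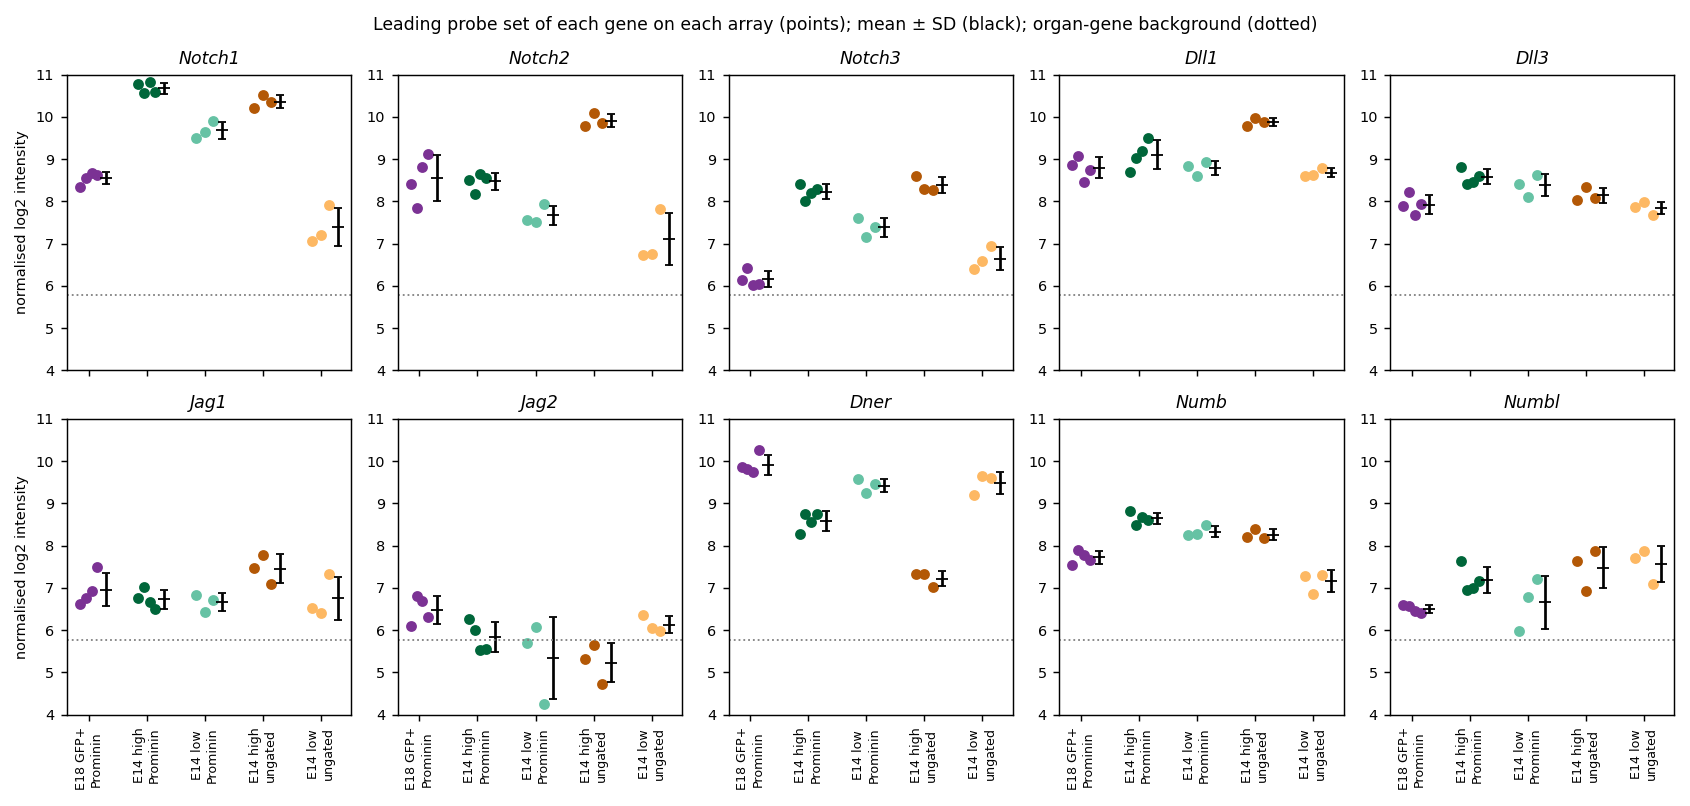
Normalised log2 intensity (vertical axis) of the leading probe set, that with the highest mean, of each of the 10 genes on each array (points), by group (horizontal axis); black bars give the mean ± SD over the 3 or 4 arrays of a group, and the dotted line is the background of 5.77. At these probe sets Notch1 separates all 5 groups, while Dner is highest on the 4 E18 arrays and lowest on the 3 ungated GFP-high arrays.

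Gated GFP-high cells had more Notch1 RNA than gated GFP-low cells at E14 by its leading probe set, and no other of the 18 probe sets passed the test. Notch1 averaged 10.68 ± 0.13 in GFP-high (n = 4) and 9.68 ± 0.20 in GFP-low cells (n = 3), a log2 difference of 1.00 ± 0.16 (SE), which is 2-fold (limma, adjusted p = 0.0198). The second Notch1 probe set, at 7.30 ± 0.24 in GFP-high and 6.71 ± 0.31 in GFP-low cells, was not called (0.59 ± 0.19, adjusted p = 0.211). The call was lost without GFP-high replicate 3 or 4 or without any of the 3 GFP-low arrays, with adjusted p of up to 0.0784 when 1 array was left out. Of the 18 probe sets 1 was called higher and 0 lower, where 0.592% of all probe sets were called in either direction and 0.132% higher.

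The other receptors and Dner did not pass the threshold in this gated contrast. Notch3 averaged 8.23 ± 0.17 in GFP-high and 7.38 ± 0.22 in GFP-low cells, and its difference of 0.85 ± 0.17 had an adjusted p of 0.0506. That of Notch2 was 0.81 ± 0.26 (adjusted p = 0.230). Dner averaged 8.58 ± 0.23 in GFP-high and 9.42 ± 0.16 in GFP-low cells, with differences of −0.84 ± 0.19 (adjusted p = 0.0651) and −0.92 ± 0.19 (adjusted p = 0.0526) for its 2 probe sets. When only the leading probe set of each gene was tested, Notch1 and Notch3 were called higher and Dner lower. Dll1, Dll3, Jag1, Jag2, Numb and Numbl differed by 0.08 to 0.53 at their leading probe sets, with adjusted p of 0.477 to 0.943. The groups did not overlap for 7 probe sets that were higher and 2 that were lower in GFP-high cells, and 11.5% of all probe sets had groups that did not overlap. The median difference over the 18 was 0.32, against −0.00 over all probe sets. In the same contrast 5 of 14 neuron markers (median −0.80) and 5 of 8 Cajal-Retzius markers (median −1.52) were called lower in GFP-high cells. Of the radial glia markers 0 of 10 were called (median 0.55), with array means of 9.25 to 9.61 in GFP-high and 8.92 to 9.07 in GFP-low cells. Basal progenitor markers, with 0 of 6 called (median 0.62), had array means of 10.17 to 10.52 in GFP-high and 9.60 to 9.96 in GFP-low cells. The part of these markers in the differences was not tested.

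Without the Prominin gate, GFP-high cells had more RNA of all 3 receptors, of Dll1 and of Numb than GFP-low cells, and less of Dner. Notch1 averaged 10.36 ± 0.16 in GFP-high and 7.39 ± 0.46 in GFP-low cells (n = 3 each), 7.82-fold higher (2.97 ± 0.27, adjusted p = 0.00108). Notch2 was 7.03-fold higher (2.81 ± 0.32, adjusted p = 0.00213) and Notch3 3.35-fold (1.75 ± 0.22, adjusted p = 0.00308). In all, 5 of the 6 receptor probe sets were called higher. The exception, the second for Notch2, lay near the background and differed by −0.08 ± 0.42. The second for Notch3, among those called, was also dim, with a GFP-low mean of 5.14 below the background.

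Among the ligands, Dll1 averaged 9.88 ± 0.10 in ungated GFP-high and 8.68 ± 0.10 in ungated GFP-low cells and was 2.3-fold higher (1.20 ± 0.18, adjusted p = 0.00613). Dner averaged 7.22 ± 0.18 in GFP-high and 9.48 ± 0.25 in GFP-low cells, 4.8-fold lower in GFP-high cells at one probe set (−2.26 ± 0.22, adjusted p = 0.00127) and 5.5-fold at the other (−2.46 ± 0.21, adjusted p = 0.000959). Dll3 (0.30 ± 0.20) and Jag1 (0.70 ± 0.31) were not called. The second Jag2 probe set was called lower (−1.20 ± 0.29, adjusted p = 0.0385) with a GFP-high mean below the background, and its call was lost when any single array was left out. Numb averaged 8.26 ± 0.12 in GFP-high and 7.15 ± 0.26 in GFP-low cells, 2.16-fold higher (1.11 ± 0.21, adjusted p = 0.0153), and lost its call without any of the GFP-high arrays, with an adjusted p of up to 0.0604. Numbl differed by −0.08 ± 0.32 (adjusted p = 0.925).

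Of the 18 probe sets 7 were called higher and 3 lower in ungated GFP-high cells, where 11.7% of all probe sets were called, 5.66% higher and 6% lower. Their groups did not overlap for 9 that were higher and 4 that were lower, against 30.8% of all probe sets. The neuron marker mean was 8.21 to 8.58 on GFP-high and 11.01 to 11.20 on GFP-low arrays here, with 13 of its 14 genes called lower in GFP-high cells, and its part in the differences was not tested. The radial glia marker mean was 10.32 to 10.36 on GFP-high and 8.16 to 8.81 on GFP-low arrays, with 7 of 10 genes called higher. That of basal progenitor markers was 10.54 to 10.83 on GFP-high and 8.80 to 9.27 on GFP-low arrays, with 5 of 6 called higher. The part of both lists in the differences was not tested.

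The gated contrast was smaller than the ungated contrast for Notch1, Notch2 and Dner when the difference between the 2 contrasts was tested on all 17 arrays. For Notch1 the gated log2 contrast minus the ungated one was −1.97 ± 0.29 (adjusted p = 0.000961), with −1.27 ± 0.27 (adjusted p = 0.0103) at its second probe set. For Notch2 it was −2.01 ± 0.42 (adjusted p = 0.00929). Dner, whose contrasts were negative, gave 1.42 ± 0.28 (adjusted p = 0.00547) and 1.54 ± 0.28 (adjusted p = 0.00298). Those of Notch3 (−0.90 ± 0.27, adjusted p = 0.0641), Dll1 (−0.88 ± 0.29, adjusted p = 0.0934) and Numb (−0.80 ± 0.24, adjusted p = 0.0709) did not pass. Of the 18 probe sets 2 were called positive and 3 negative, where 4.87% of all were called, 2.48% positive and 2.39% negative, and the 5 calls held when any 1 of the 13 E14 arrays was left out. Of the 14 neuron markers 10 were called positive in the same test and of the 10 radial glia markers 6 negative. Labelling differed with the gate: all gated arrays and ungated GFP-high replicate 1 had a MessageAmp II kit and the other 5 an Affymetrix kit. The 5 calls stayed past the threshold with the kit as a term in the limma fit (adjusted p 0.00236 to 0.0192). Within a group the kit differed only in ungated GFP-high cells, so any such term rests on 1 of 3 arrays there. It therefore cannot separate the kit from the gate in GFP-low cells.

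E18 cells had less RNA of Notch1, Notch3, Numb and Dll3 and more of Dner than gated GFP-high cells of E14. Notch1 averaged 8.55 ± 0.15 at E18 and 10.68 ± 0.13 at E14 (n = 4 each), 4.38-fold lower at E18 (−2.13 ± 0.15, adjusted p = 2.13e-06). Notch3 averaged 6.16 ± 0.18 at E18 and 8.23 ± 0.17 at E14, 4.2-fold lower (−2.07 ± 0.16, adjusted p = 3.76e-06). The second probe sets of both receptors were also called lower, with differences of −1.01 ± 0.17 for Notch1 and −1.22 ± 0.24 for Notch3. Notch2, at 8.55 ± 0.55 at E18 and 8.47 ± 0.20 at E14, differed by 0.08 ± 0.25 (adjusted p = 0.878).

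Dner averaged 9.91 ± 0.24 at E18 and 8.58 ± 0.23 in gated GFP-high cells of E14, 2.52-fold higher at E18 (1.33 ± 0.17, adjusted p = 0.000141) and 2.73-fold at its second probe set (adjusted p = 8.96e-05). Dll3 averaged 7.92 ± 0.22 at E18 and 8.58 ± 0.18 at E14, 1.57-fold lower (−0.65 ± 0.17, adjusted p = 0.0154), and lost its call without E18 replicate 4 (adjusted p = 0.0515). Dll1 (−0.32 ± 0.19, adjusted p = 0.289), Jag1 (0.22 ± 0.20) and Jag2 (0.65 ± 0.34) were not called. Numb averaged 7.72 ± 0.15 at E18 and 8.65 ± 0.13 at E14, 1.9-fold lower (−0.93 ± 0.14, adjusted p = 0.000526). For Numbl, with a difference of −0.68 ± 0.24, the adjusted p was 0.0600.

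Against gated GFP-low cells of E14, which share the E18 arrays with the comparison above, E18 cells had less Notch1, Notch3 and Numb at their leading probe sets. Notch1 averaged 8.55 ± 0.15 at E18 and 9.68 ± 0.20 in GFP-low cells, 2.2-fold lower at E18 (−1.13 ± 0.16, adjusted p = 0.000652). Notch3 was 2.33-fold lower (−1.22 ± 0.17, adjusted p = 0.000607), and Numb averaged 7.72 ± 0.15 at E18 and 8.33 ± 0.13 in GFP-low cells (−0.62 ± 0.15, adjusted p = 0.0174). The Numb call was lost without E18 replicate 2 or without GFP-low replicate 3, with an adjusted p of up to 0.0645. Notch2 was called higher at E18 (0.88 ± 0.26, adjusted p = 0.0389) although the groups overlapped, and with 1 array left out the call was lost in 5 of 7 fits, with an adjusted p of up to 0.120. Dner differed by 0.49 ± 0.19 (adjusted p = 0.0938), and Dll1 by 0.00 ± 0.21. The second probe sets of Notch1 (−0.42 ± 0.19, adjusted p = 0.157) and Notch3 (−0.24 ± 0.26, adjusted p = 0.597) were not called.

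At E18 2 of the 18 probe sets were called higher and 6 lower against GFP-high cells, where 23.3% of all probe sets were called, 9.84% higher and 13.5% lower. Against GFP-low cells 1 was called higher and 3 lower, where 16.2% were called, 6.75% higher and 9.47% lower. Groups did not overlap for 9 probe sets in the first comparison, against 26.4% of all, and for 7 in the second, against 27.3%. The neuron marker mean was 10.19 to 10.37 on E18 arrays, 9.19 to 9.39 on gated GFP-high arrays and 10.06 to 10.17 on gated GFP-low arrays. For the radial glia markers it was 8.99 to 9.28 at E18, 9.25 to 9.61 in gated GFP-high and 8.92 to 9.07 in gated GFP-low cells. That mean joins genes that moved in opposite directions. Of these 10 markers 2 were called higher and 4 lower at E18 against GFP-high cells, and 3 higher and 4 lower against GFP-low cells. Of the neuron markers 10 were called higher and 1 lower at E18 against GFP-high cells, and 3 higher and 3 lower against GFP-low cells. In each comparison 6 of 8 interneuron and 3 of 6 oligodendrocyte lineage markers were called higher at E18 and 4 of 6 basal progenitor markers lower. The basal progenitor marker mean was 8.53 to 8.97 on E18 arrays, 10.17 to 10.52 on gated GFP-high and 9.60 to 9.96 on gated GFP-low arrays. Cajal-Retzius markers had 6 of 8 called lower at E18 against GFP-low cells. The 3′ minus 5′ difference for Gapdh, a log2 difference between control probe sets for the 2 ends of its RNA, was −0.21 to 1.00 on E18 arrays. It was 0.54 to 2.30 on gated E14 arrays. For beta-actin it was 0.69 to 1.62 on E18 and 0.89 to 1.8 on gated E14 arrays. The part of these markers and of these 3′ minus 5′ differences in the receptor differences was not tested.

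**Figure D2:**
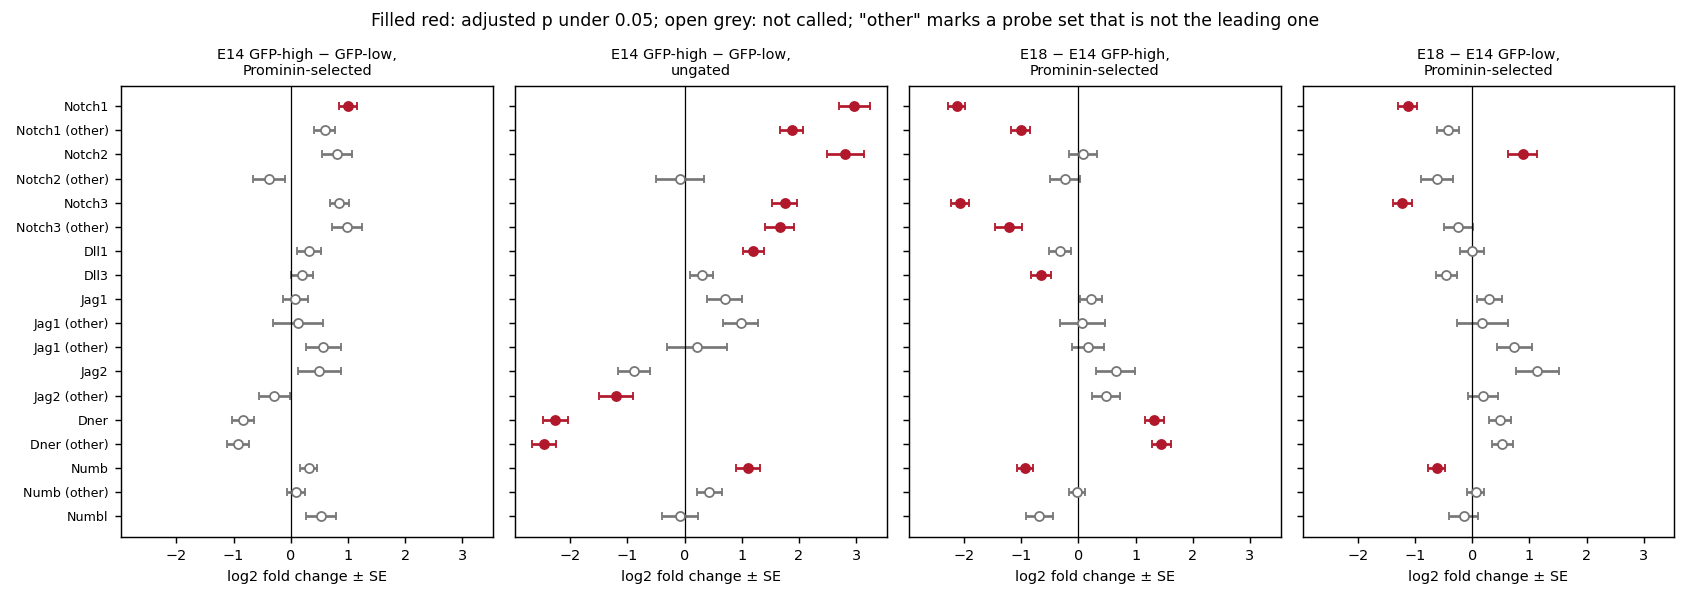
Log2 fold change ± SE (horizontal axis) of the 18 probe sets (rows) in 4 comparisons, with filled red points for an adjusted p under 0.05. In ungated cells 5 of the 6 receptor points are called to the right, with the second of Notch2 at −0.08. Both Dner points lie to the left there. At E18 the points of Notch1 and Notch3 lie to the left of 0 against both E14 groups. Against GFP-low cells the second points of both genes are not called, that of Notch3 at −0.24 ± 0.26.

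The position of each array on the neuron marker mean and its receptor levels are shown together for 4 genes. E18 and gated GFP-low arrays had neuron marker means of 10.19 to 10.37 and 10.06 to 10.17. Notch1 read 8.34 to 8.68 at E18 and 9.50 to 9.90 in gated GFP-low cells. Notch3 read 6.03 to 6.41 at E18 and 7.16 to 7.61 in gated GFP-low cells. The second probe sets of Notch1 and Notch3 were not called between these 2 groups. Notch2 read 7.85 to 9.13 at E18 and 7.52 to 7.93 in gated GFP-low cells, which overlap. Dner was higher at E18, with 9.73 to 10.26 against 9.25 to 9.57, but was not called. The part of the neuron markers in these differences was not tested. Among the E14 groups Notch3 was lower where the neuron marker mean was higher, except that the GFP-high groups overlapped. The leading Notch1 probe set departed from that order at the top, with 10.56 to 10.82 on gated and 10.20 to 10.51 on ungated GFP-high arrays, while the second, with 7.08 to 7.64 on gated and 8.21 to 8.66 on ungated GFP-high arrays, did not. Interneuron, Cajal-Retzius and basal progenitor marker means also differed between E18 and gated GFP-low arrays.

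**Figure D3:**
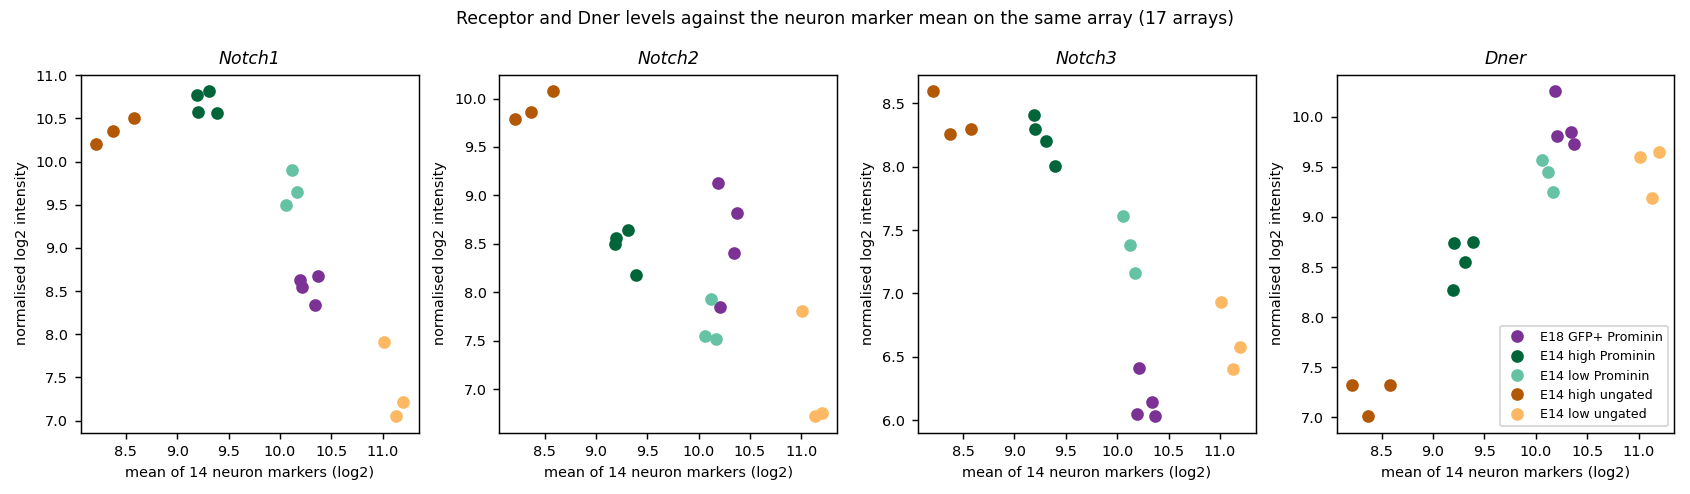
Normalised log2 intensity of Notch1, Notch2, Notch3 and Dner (vertical axes) against the mean log2 level of 14 postmitotic neuron markers on the same array (horizontal axis), 1 point for each of the 17 arrays. E18 arrays lie beside the gated GFP-low arrays on the neuron axis. At the leading probe sets shown they lie below them for Notch1 and Notch3, above them for Dner and overlap them for Notch2.

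Gated GFP-high cells had less Notch2 and Dll1 than ungated GFP-high cells, more Dner at 1 of its 2 probe sets, and no call for Notch1 at its leading probe set. Notch2 averaged 8.47 ± 0.20 in gated (n = 4) and 9.91 ± 0.15 in ungated cells (n = 3), 2.71-fold lower in gated cells (−1.44 ± 0.29, adjusted p = 0.00166). Dll1 averaged 9.10 ± 0.34 in gated and 9.88 ± 0.10 in ungated cells (−0.77 ± 0.20, adjusted p = 0.00847). Dner averaged 8.58 ± 0.23 in gated and 7.22 ± 0.18 in ungated cells, 2.57-fold higher in gated cells (1.36 ± 0.19, adjusted p = 7.48e-05), while its second probe set, with groups that overlapped, was not called (0.48 ± 0.19, adjusted p = 0.0810). The leading probe set of Notch1 differed by 0.32 ± 0.20 (adjusted p = 0.284), and its second was called lower (−1.06 ± 0.19, adjusted p = 0.000560), so the 2 had opposite signs. The second probe sets of Notch3 (−0.99 ± 0.26, adjusted p = 0.0106) and Numb (adjusted p = 9.18e-06) were also called lower, that of Notch3 not without ungated GFP-high replicate 3 (adjusted p = 0.0763). With the kit as a term, the difference was −1.32 for Notch2 (adjusted p = 0.0628), −0.68 for Dll1 (adjusted p = 0.157) and 1.26 for Dner (adjusted p = 0.0102). Of the markers, 6 of 10 for radial glia were called lower in gated cells, and 8 of 14 for neurons and 7 of 8 for interneurons higher, and their part was not tested.

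Gated GFP-low cells had more Notch1, Notch3 and Numb than ungated GFP-low cells. Notch1 averaged 9.68 ± 0.20 in gated and 7.39 ± 0.46 in ungated cells (n = 3 each), 4.91-fold higher in gated cells (2.29 ± 0.21, adjusted p = 5.39e-06), and its second probe set differed by 0.21 ± 0.20 (adjusted p = 0.513). Numb averaged 8.33 ± 0.13 in gated and 7.15 ± 0.26 in ungated cells, 2.27-fold higher (1.18 ± 0.18, adjusted p = 0.000223). Notch3 was 1.68-fold higher (0.74 ± 0.20, adjusted p = 0.0124), a call lost without gated or ungated GFP-low replicate 1 (adjusted p up to 0.0634). Numbl was called lower (−0.90 ± 0.31, adjusted p = 0.0483) with groups that overlapped, and that call was lost in 4 of the fits with 1 array left out (adjusted p up to 0.233). For Dner the leading probe set differed by −0.06 ± 0.20 and the second was called lower (−1.06 ± 0.20, adjusted p = 0.00135), as was the second of Jag2 (−1.36 ± 0.30, adjusted p = 0.00378), whose gated mean lay below the background. Every ungated GFP-low array had the Affymetrix kit and every gated one MessageAmp II, so kit and gate cannot be told apart within GFP-low cells. A kit term can be estimated only from the ungated GFP-high arrays. With the kit as a term over all 17 arrays, only Notch1 of the 18 probe sets stayed called (2.54, adjusted p = 0.00553). The differences that lost their call were 1.26 for Numb (adjusted p = 0.0541), −1.21 for its second probe set, −1.14 for Numbl, 0.42 for Notch3, −0.81 for the second of Dner and −0.72 for the second of Jag2 in that fit. In gated GFP-low cells 7 of 8 Cajal-Retzius and 5 of 8 interneuron markers were called higher and 9 of 14 neuron markers lower. Of the 10 radial glia markers 4 were called higher and 1 lower, and of the 6 basal progenitor markers 3 higher and 1 lower. The part of these lists was not tested.

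For the gate, 1 probe set of the 18 was called higher and 5 lower among GFP-high cells, where 21.7% of all were called, 10.7% higher and 11% lower. Among GFP-low cells 3 were called higher and 4 lower, where 19.6% were called, 9.61% higher and 9.98% lower. Groups did not overlap for 11 probe sets among GFP-high cells, against 31.2% of all, and for 7 among GFP-low cells, against 32.2%. Numb had probe sets called in opposite directions in GFP-low cells: the second read 4.13, 4.15 and 4.41 on gated and 5.14, 5.45 and 5.78 on ungated arrays. Both of those group means lay below the background, so no fold is given for it. In GFP-high cells the same probe set read 4.15, 4.51, 4.35 and 4.30 on gated and 5.88, 6.02 and 5.77 on ungated arrays, and the first of the ungated values came from the array with the MessageAmp II kit. The 3′ minus 5′ difference for Gapdh was 0.54 to 2.30 on gated E14 arrays and −0.25 to 0.18 on ungated ones. For beta-actin it was 0.89 to 1.8 on gated and 0.37 to 0.73 on ungated E14 arrays. The part of these 3′ minus 5′ differences in the opposite signs was not tested.

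**Figure D4:**
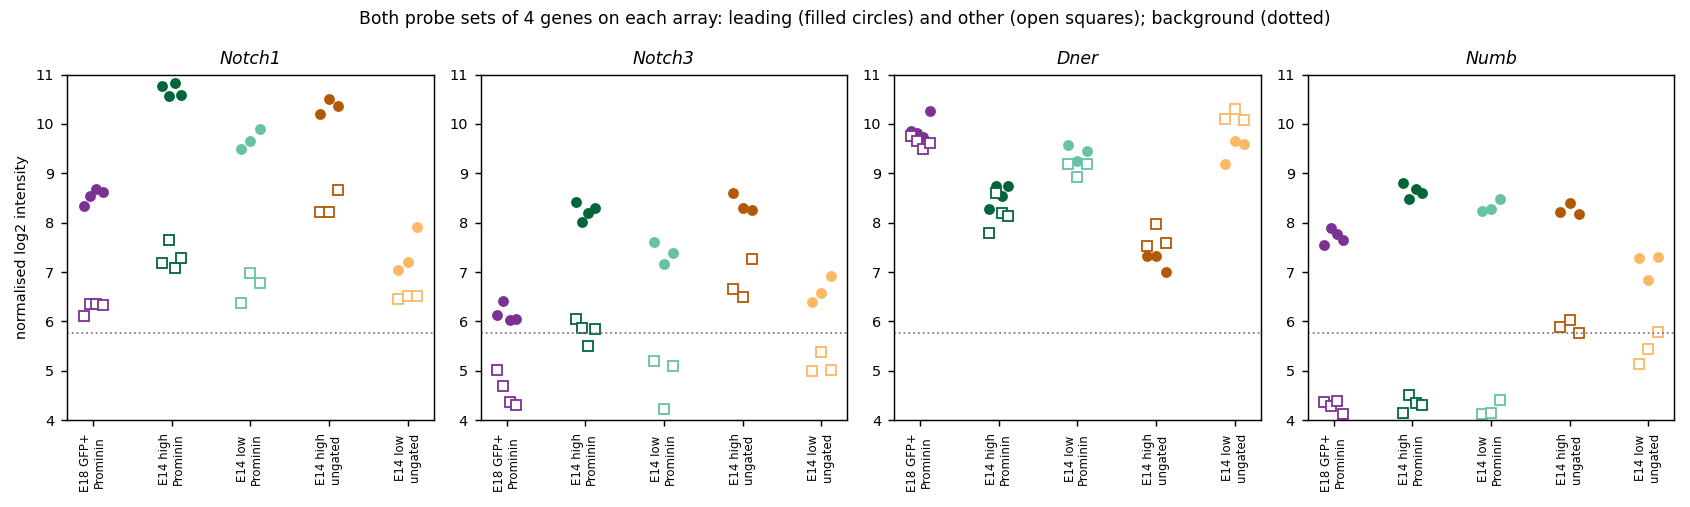
Normalised log2 intensity (vertical axis) of both probe sets of Notch1, Notch3, Dner and Numb on each array by group (horizontal axis), with filled circles for the leading one, open squares for the other and the background of 5.77 dotted. The second Numb probe set stays below 4.6 on all gated and E18 arrays and between 5.14 and 6.02 on ungated arrays.

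Over the 17 arrays, Pearson's r between the probe sets of a gene was 0.869 for Dner, 0.810 for Notch3, 0.693 for Notch1, 0.186 for Jag2, −0.148 for Notch2 and −0.314 for Numb, and the 3 pairs for Jag1 gave 0.242 to 0.364. These arrays share groups, kits and normalisation, so the values describe likeness only. The second probe sets of Notch2, Notch3, Jag2 and Numb were above the background in 2, 2, 1 and 1 of the 5 groups.

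The rest of the pathway was followed through 64 measured genes, 1 probe set each. In gated cells 1 was called higher in the GFP-high group and 0 lower, where 0.753% of genes were called, 0.159% higher and 0.594% lower. That gene was Neurog1, a proneural factor repressed by Hes proteins, at 9.14 ± 0.17 in GFP-high and 7.66 ± 0.24 in GFP-low cells (2.79-fold, adjusted p = 0.0128). Hes1 (0.65 ± 0.27, adjusted p = 0.360), Hes5 (0.78 ± 0.37, adjusted p = 0.452) and Lfng, a glycosyltransferase that modifies the receptors (1.03 ± 0.25, adjusted p = 0.0868), were not called.

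In ungated cells 12 of the 64 were called higher and 5 lower in GFP-high cells, where 6.68% and 7.1% of genes were. Of 11 measured genes listed as targets and feedback regulators, 7 were higher and 0 lower, with a median of 1.89. That list also holds the proneural genes Neurog1 and Neurog2, so its counts are not a measure of Notch output. Hes1 averaged 8.75 ± 0.14 in GFP-high and 6.44 ± 0.16 in GFP-low cells, 4.93-fold higher (adjusted p = 0.000978), Hes5 was 4.81-fold higher (adjusted p = 0.00760) and Lfng 2.83-fold (adjusted p = 0.00663). Nrarp, a Notch target that dampens the pathway, was 4.36-fold higher (adjusted p = 0.00145). Lower in GFP-high cells were Lnx2, a ubiquitin ligase that binds Numb (4.38-fold, adjusted p = 0.00174), and Cntn1, a neuronal adhesion protein reported to bind Notch, at 4.97 ± 0.36 in GFP-high and 7.78 ± 0.39 in GFP-low cells (adjusted p = 0.00143).

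At E18 8 of the 64 were called higher and 23 lower against gated GFP-high cells, where 9.59% and 15.5% of genes were. The list of targets and feedback genes, with Neurog1 and Neurog2 in it, had 1 higher and 7 lower with a median of −1.07. Genes of the nuclear complex had 0 higher and 8 lower of 14 with a median of −0.58. Neurog1 averaged 4.55 ± 0.39 at E18, below the background, and 9.14 ± 0.17 in gated GFP-high cells (adjusted p = 1.85e-07). Mfng, another receptor glycosyltransferase, was 5.49-fold lower (adjusted p = 6.16e-06), Neurog2 5.36-fold (adjusted p = 1.93e-05) and Hey1, a Hes-related repressor, 3.86-fold (adjusted p = 5.61e-05). Hes1 was 2.11-fold lower (adjusted p = 0.00673) and Hes5 2.93-fold (adjusted p = 0.00556), and Lfng also fell (−1.40 ± 0.23, adjusted p = 0.000749). Against gated GFP-low cells 7 were higher and 13 lower, where 5.72% and 10.7% of genes were. There Hey1 was 3.62-fold lower (adjusted p = 0.000325) and Fabp7, a radial glial lipid-binding protein reported as a Notch target, 3.36-fold higher (adjusted p = 0.000116), while Hes1, Hes5 and Lfng were not called (adjusted p 0.195 to 0.358).

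Between gated and ungated GFP-high cells 11 of the 64 were called higher and 9 lower, where 20.3% of genes were called, 11.6% higher and 8.79% lower. Hes1 was 3.42-fold lower in gated cells (adjusted p = 6.50e-05), Lfng 2.91-fold (adjusted p = 0.000204), Fabp7 3.57-fold (adjusted p = 8.28e-06) and Ncstn, a subunit of the secretase that cuts the receptor, 2.76-fold (adjusted p = 1.61e-05). Kdm5a, a histone demethylase that works with RBPJ, was 6.09-fold higher (adjusted p = 9.58e-06), and Hes5 was not called (−0.51, adjusted p = 0.399). Between gated and ungated GFP-low cells 10 were higher and 4 lower, where 10.3% and 8.16% were, among them Kdm5a (8.3-fold higher, adjusted p = 1.11e-05), Mfng (2.94-fold higher, adjusted p = 0.000253) and Ncstn (2.48-fold lower, adjusted p = 0.000132). Lfng was also called lower there (−1.07 ± 0.26, adjusted p = 0.00720), and Hes1 (−0.12, adjusted p = 0.796) and Hes5 (0.98, adjusted p = 0.106) were not called. In GFP-low cells kit and gate cannot be told apart, and in GFP-high cells most ungated arrays also had the other kit. With the kit as a term, calls over all probe sets went from 6845 to 874 in GFP-low cells. The pathway genes are given without that term. In the test of the gated against the ungated GFP contrast 4 were positive and 5 negative, where 3.08% and 3.06% were. All 5 negative ones were on the list of targets, feedback and proneural genes, with Nrarp at −1.46 ± 0.28 (adjusted p = 0.00451) and Hes1 at −1.65 ± 0.36 (adjusted p = 0.0107). Hes5 (−1.48, adjusted p = 0.163) and Lfng (−0.47, adjusted p = 0.574) did not pass.

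Among 9096 genes with a mean above the median gene, the pattern of Notch1 over the 17 arrays was most like those of Pnp (r = 0.986), Smo (0.985) and Sox6 (0.981). Notch2 was most like Myo10 (0.939), Sox2 (0.932) and Fam210b (0.919), and Notch3 most like Trip6 (0.975), Gadd45g (0.970) and Lpar1 (0.970). Dner was most like Vldlr (0.981), Pisd-ps3 (0.978) and Mapre2 (0.976). For Dll1 the nearest was Peli2 (0.969), for Dll3 Mrpl3 (0.912), for Numb Elovl1 (0.966) and for Numbl Paf1 (0.912). The nearest genes to Jag1 (Zfp37, 0.826) and Jag2 (Ovgp1, 0.842) had lower r. Each r is over 17 arrays in 5 groups and mostly follows the group means.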

How the data were processed

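The deposited values are 1 linear intensity per probe set, made by the authors. For the software that summarised them, nothing is given in the sources used here. With the lowest and highest 2% of values left out, each array has a mean of 150.0, and array medians run from 24.2 to 45.1. RNA was labelled with biotin, with a MessageAmp II kit for 12 arrays and an Affymetrix kit for 5, per the labels.

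A pseudocount of 16 was added, log2 taken and quantile normalisation applied over 45037 probe sets without the 64 controls. Of these 34945 carry 1 symbol in the platform annotation, 932 several (0 with one of the 10 genes) and 9160 none. The 34945 were tested two-sided with limma 3.58.1 (lmFit, eBayes) in R 4.3.3 and Benjamini-Hochberg adjustment over all 34945, and called at an adjusted p under 0.05. Fold changes are on the log2(value + pseudocount) scale and understate those of dim genes, and none is given where the lower mean is at or below the background. Contrasts among Prominin-selected groups used those 11 arrays, the ungated GFP contrast its 6 and the others all 17. The number of arrays limits the precision.

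The probe set with the highest mean leads for its gene. Of the other pathway genes, counts are given, up to 4 called genes with the lowest p could be named in each comparison, and Hes1, Hes5 and Lfng are given whatever their result. The likest genes are those with the highest r. The 10 genes, the lists and the tests were chosen with earlier results of these data known. Of 70 pathway genes on the list 64 were measured, and the other 6 were not analysed here. Replicate numbers are shared between groups, but arrays with the same number had correlations of −0.17 to 0.055 after group means were removed, and were not treated as paired. 0 pairs of arrays were identical. The fits were also run on simulated data with independent normal noise and known shifts. Those data held no effect of kit or gate, so they do not bear on such effects here. Promoter windows are those of RefSeq for GRCm38.p6, and figures used matplotlib 3.10.9.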

Additional observations from a re-analysis of the deposited data

Results flagged for a closer look

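The change with GFP level differed between gated and ungated cells, by limma's test of that difference, for 5 probe sets of 3 genes. The gated contrast minus the ungated one was −1.97 and −1.27 for the 2 probe sets of Notch1, −2.01 for the leading one of Notch2, and 1.42 and 1.54 for the 2 of Dner. Single arrays lay far from the rest of their group, by Dixon's test, in 3 of 36 tests, and chance gives about 1 in 20. These were the 18 probe sets in the E18 and the gated GFP-high groups of 4 arrays, so the tests share arrays. The groups of 3 arrays were not tested. The second Notch1 probe set read 6.12 on E18 replicate 2, the lowest of a group that reached 6.36. The second Notch2 probe set read 4.31 on E18 replicate 5, in a group that reached 5.14, and 1 Jag1 probe set read 4.24 on gated GFP-high replicate 1, in a group that reached 5.45. The last 2 are below the background of 5.77.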

How the results depend on the processing

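Of 2191 repeats of single probe set results under other settings 0 turned direction with a call on either side, 59 fell short of the threshold and 71 newly passed it. In the gated GFP contrast 1 of 18 probe sets was called. That count was 2 with the values as deposited, 0 with a pseudocount of 1, 4 with one of 64, 4 without the dimmest 40% of probe sets, 3 with 1 probe set a gene, 3 with all arrays, 4 with a trended and robust fit, 3 with the labelling kit as a term and 0 with the replicate block. Without 1 array it ran from 0 to 2, and calls over all probe sets, 207, from 11 to 203. In the ungated contrast 10 calls became 6 with 1 probe set a gene, and 8 to 10 without 1 array. At E18 against GFP-high cells 8 became 5 with 1 probe set a gene, and 7 to 8 without 1 array. Against GFP-low cells 4 became 7 with a pseudocount of 64, 7 with the trended and robust fit, 2 with the replicate block, and 2 to 4 without 1 array. Between gated and ungated GFP-high cells 6 became 10 with a pseudocount of 64, 3 with 1 probe set a gene, 3 with the kit as a term, and 6 to 8 without 1 array. Between GFP-low cells 7 became 4 with 1 probe set a gene, 1 with the kit as a term, and 5 to 8 without 1 array. For the difference of contrasts 5 became 8 with a pseudocount of 64, 8 without the dimmest probe sets, and 5 to 6 without 1 array. With 1 probe set a gene only 10 of the 18 are tested, and the other causes were not tested. The replicate block, for numbers not treated as paired, gave 9 calls in the ungated contrast, 7 at E18 against GFP-high cells, 6 for the gate in either GFP group and 5 for the difference of contrasts. Over all probe sets it gave 0 calls in the gated contrast, 2461 in the ungated one, where 4074 were called without it, 5079 at E18 against GFP-high cells (8149 without) and 2069 against GFP-low cells (5670 without). The 207 calls of the gated contrast became 62 with median centring, 70 with a pseudocount of 1, 557 with one of 64, 442 without the dimmest probe sets and 507 with the trended and robust fit. Those of the ungated contrast became 2524 with a pseudocount of 1, 6296 with all arrays, 2340 with the Affymetrix kit only and 2337 to 3875 without 1 array. For the gate, 7586 calls in GFP-high cells became 3712 with the kit as a term and 4264 with MessageAmp II only, and 6845 in GFP-low cells became 874 with the kit as a term and 3542 with only those groups fitted. Signal near the background limits Jag2, 2 of the Jag1 probe sets and the second probe sets of Notch2, Notch3 and Numb.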
